A study of Rattus norvegicus with 11 samples.

Results

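Rat bone marrow mesenchymal stem cells, abbreviated BMSCs, were compared after culture in medium from irradiated dendritic cells and in medium from unirradiated dendritic cells. The study holds 11 mRNA libraries in 3 groups, all of BMSCs at day 3. The 4 IRDC libraries are BMSCs given medium of the irradiated dendritic cells, described for the series as mDC-8Gy. The 3 imDC libraries are BMSCs given medium of the unirradiated dendritic cells, described as mDC-0Gy. The 4 control libraries are BMSCs with no dendritic cell medium named. The doses of 8 Gy and 0 Gy stand in the series' design text and not in the sample titles, so the reading of IRDC and imDC as these arms rests on their names. Rat strain, sex and age, the passage of the cells and the source of the dendritic cells are not given in the sources used here.

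The level of each gene was deposited as FPKM, the fragments of a gene scaled by its length and by the mapped total of the library. The genes compared were those with at least 1 FPKM in at least 3 of the 7 IRDC and imDC libraries, which left 11979 of the 32883 genes of the table. The number of batches of dendritic cell medium is not given, so irradiation of the dendritic cells and differences among medium batches cannot be told apart. The titles call the replicates biological but name no separate animals or cultures, so the p-values reflect only how far these libraries vary, and that variation may be technical.

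Dendritic cells take up antigen, sense tissue damage and secrete cytokines, and ionising radiation damages DNA in any cell it reaches. Stromal cells of the marrow answer interleukin 1 and tumour necrosis factor through the transcription factor NF-kB, which drives neutrophil chemokines, interleukin 6, prostaglandin E2 synthesis and matrix proteases. The same cells can become osteoblasts or adipocytes, and they hold blood stem cells in place with Cxcl12 and Kit ligand.

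IRDC libraries had higher inflammatory cytokines, neutrophil chemokines, prostaglandin E2 enzymes, activin A, stromelysins and hypoxia pathway genes than imDC libraries. The same libraries had lower interferon-response genes, cholesterol and fatty acid enzymes, replication and mitosis genes, adipocyte genes, Bmp4 and Igf1. Runx2, the factor that commits cells to the osteoblast lineage, did not pass the test on the values as deposited. In total 7156 of the 11979 genes were called at an adjusted p under 0.05 (limma on log2(FPKM + 1), Benjamini-Hochberg adjustment over all genes tested), which is 59.7% of them. Of these, 2530 genes were higher in IRDC (21.1% of genes tested) and 4626 were lower (38.6%). These shares belong beside the counts of gene lists below, several of which lie near them.

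Calls at least 2-fold in size, a log2 fold change of 1 or more in either direction, numbered 642 genes (5.36% of genes tested). Of these, 211 were higher in IRDC (1.76%) and 431 were lower (3.6%). At least 4-fold differences were found for 10 genes higher and 75 genes lower in IRDC, 85 in all. These counts depended on the number added before the logarithm. With 0.1 in place of 1 they were 961 at least 2-fold and 247 at least 4-fold, and with limma-voom on the recovered reads 1010 and 261. IRDC and imDC libraries did not overlap for 7142 genes (59.6%). The median log2 fold change of all genes tested was -0.084. Under a TMM-like scaling of the libraries the median was 0.0015 and 50.5% of calls were higher, against 35.4% as deposited. Quantile normalization gave a median of 0.011 and 50.4% higher, and under each scaling 2 genes were called both ways with opposite signs.

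**Figure D1:**
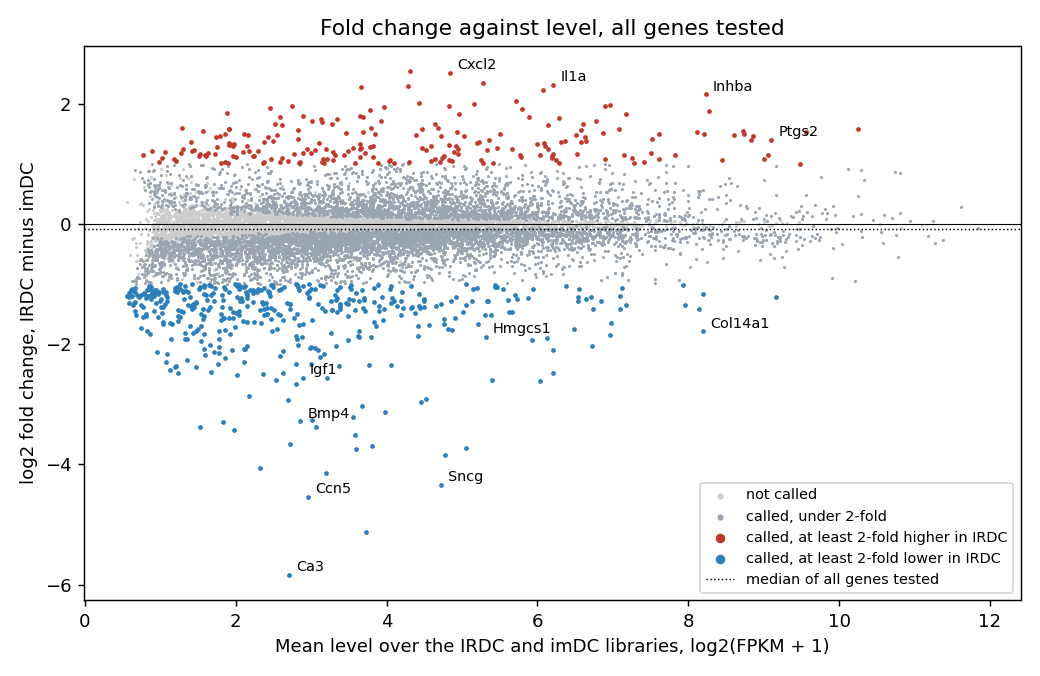
Each point is 1 of the 11979 genes tested, with its mean level over the 7 IRDC and imDC libraries on the x axis, as log2(FPKM + 1), and its log2 fold change, IRDC minus imDC, on the y axis. Of the 211 genes at least 2-fold higher, Cxcl2 lies second from the top at 2.51, under a gene with no assigned name, and the 431 genes at least 2-fold lower extend to -5.84 at Ca3.

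Reads recovered per library numbered 20515216 to 21672852 in IRDC, 17780428 to 19571859 in imDC and 21213271 to 25521204 in control. Across genes, libraries correlated at 0.993 to 0.994 within IRDC, 0.992 to 0.993 within imDC and 0.959 to 0.960 between the groups (Pearson's r of log2(FPKM + 1) over genes, a description). No library stood apart. Of the 11 markers listed for bone marrow stromal cells, 10 were at 20.8 FPKM or more on average in both groups, among them Thy1 at 1060.4 FPKM in IRDC and 862 FPKM in imDC. Lepr, the leptin receptor of marrow stroma, was at 0.0636 FPKM in IRDC and 0.136 FPKM in imDC and was not tested. In these bulk libraries fewer cells of a type and less RNA per cell cannot be told apart.

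Several neutrophil chemokines were among the genes at least 2-fold higher in IRDC. Of 9 CXC chemokines tested, 8 were higher in IRDC and 1 was lower, with a median log2 fold change of 1.14 beside -0.084 over all genes. Cxcl2, a ligand of the neutrophil receptor Cxcr2, had 60.8, 59.6, 56.3 and 61.9 FPKM in the IRDC libraries, against 10.6, 8.93 and 9.44 FPKM in the imDC libraries (log2 fold change 2.51, SE 0.071, adjusted p = 1.4e-11). No IRDC library came near the imDC range, and the 4 control libraries held 0.04397 to 0.249 FPKM. Cxcl3, a ligand of the same receptor, averaged 463 ± 6.11 FPKM in IRDC and 163 ± 3.85 FPKM in imDC (mean ± SD, n = 4 and n = 3, as for all averages with ±; log2 fold change 1.502, SE 0.055, adjusted p = 1.8e-10). Cxcl1 averaged 688 ± 15.9 FPKM in IRDC and 261 ± 4.66 FPKM in imDC (log2 fold change 1.39), and Cxcl6 averaged 748 ± 13.2 FPKM in IRDC and 339.9 ± 12.7 FPKM in imDC (log2 fold change 1.14). Each of these neutrophil attractants stood apart between the groups in all 7 libraries. The exception was Cxcl12, which holds blood stem cells in the marrow, at 476, 477, 469.6 and 471 FPKM in the IRDC libraries, against 705, 708 and 702 FPKM in the imDC libraries (log2 fold change -0.57, SE 0.015, adjusted p = 6e-12). All 4 IRDC libraries were below all 3 imDC libraries for Cxcl12, and the control libraries held 495 to 513 FPKM.

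Of 7 CC and CX3C chemokines tested, 4 were higher in IRDC and 2 were lower. Ccl20, which attracts immature dendritic cells and Th17 cells through Ccr6, averaged 668 ± 1.38 FPKM in IRDC and 228 ± 3.08 FPKM in imDC (log2 fold change 1.55, SE 0.096, adjusted p = 2.9e-08). Ccl3, a macrophage chemokine, averaged 13.8 ± 1.301 FPKM in IRDC and 3.46 ± 0.892 FPKM in imDC (log2 fold change 1.75), and the monocyte attractant Ccl2 averaged 1462 ± 16.3 FPKM in IRDC and 775 ± 18.9 FPKM in imDC (log2 fold change 0.92). Ccl12 and Cx3cl1 took the other direction. Ccl12, another monocyte attractant, had 8.06, 8.08, 8.11 and 6.88 FPKM in the IRDC libraries, against 26.99, 28.98 and 26.3 FPKM in the imDC libraries (log2 fold change -1.696, SE 0.16, adjusted p = 1.4e-06). Cx3cl1, the membrane-bound ligand fractalkine, had 0.156, 0.274, 0.354 and 0.209 FPKM in IRDC, against 3.24, 4.07 and 3.81 FPKM in imDC (log2 fold change -1.91, SE 0.096, adjusted p = 3.6e-09). Both showed no overlap between the groups.

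The interleukin 1 family held both directions, with 6 of 13 members higher and 4 lower. Il1a, an interleukin 1 ligand that signals through Il1r1, had 149, 150.2, 138 and 146 FPKM in the IRDC libraries, against 30.99, 28.7 and 26.1 FPKM in the imDC libraries (log2 fold change 2.31, SE 0.073, adjusted p = 4.3e-11). Il1b, the second interleukin 1 ligand, had 8.59, 7.97, 9.72 and 9.58 FPKM in IRDC, against 2.26, 2.25 and 2.05 FPKM in imDC (log2 fold change 1.64, SE 0.11, adjusted p = 8.6e-08). Both ligands were higher in every IRDC library than in any imDC library, while Il1b remained at a low level in both groups. Il1rl1, the receptor of interleukin 33, had 7.24, 8.004, 7.44 and 8.27 FPKM in the IRDC libraries, against 124, 124 and 125 FPKM in the imDC libraries (log2 fold change -3.84, SE 0.037, adjusted p = 9.6e-16). Its ligand Il33 moved the other way and averaged 17.5 ± 0.556 FPKM in IRDC and 8.96 ± 0.477 FPKM in imDC (log2 fold change 0.89). Il18bp, the secreted inhibitor of interleukin 18, averaged 3.46 ± 0.511 FPKM in IRDC and 10.2 ± 1.36 FPKM in imDC (log2 fold change -1.33). Tnf was listed at 0 in all 4 IRDC libraries and averaged 0.0323 FPKM in imDC, below the level needed for a test.

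Il1a and Tfpi2 are shown for a motif of the AP-1 factors Fos and Jun in their promoters. Tfpi2 is a serine protease inhibitor, and both are among the 15 named genes with the highest fold changes. Here and below, a promoter was printed only if its window held the motif. Tfpi2 had 212, 218, 213 and 204 FPKM in the IRDC libraries, against 53.3, 54.5 and 52.6 FPKM in the imDC libraries (log2 fold change 1.97, SE 0.029, adjusted p = 4.2e-14). The windows run from 250 bases before to 50 bases after the gene's start in RefSeq's GRCr8 assembly, written 5′ to 3′ on the gene's strand, with the match to TGANTCA in capitals.
Il1a promoter, chr3:136989968-136990267, minus strand: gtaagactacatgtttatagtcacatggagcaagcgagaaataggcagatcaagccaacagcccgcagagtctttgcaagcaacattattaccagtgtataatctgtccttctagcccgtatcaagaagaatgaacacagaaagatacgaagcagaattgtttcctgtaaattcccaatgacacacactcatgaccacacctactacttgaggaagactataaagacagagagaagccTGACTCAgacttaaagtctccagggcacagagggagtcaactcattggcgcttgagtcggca
Tfpi2 promoter, chr4:32941227-32941526, minus strand: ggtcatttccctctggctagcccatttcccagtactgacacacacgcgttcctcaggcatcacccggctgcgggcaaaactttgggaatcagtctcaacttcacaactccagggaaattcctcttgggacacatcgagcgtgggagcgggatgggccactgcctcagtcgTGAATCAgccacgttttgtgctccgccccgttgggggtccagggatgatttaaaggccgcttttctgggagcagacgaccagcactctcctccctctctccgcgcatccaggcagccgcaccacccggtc
The match lies 12 bases before the start of Il1a and 80 bases before that of Tfpi2. TGANTCA, searched on both strands, stood in 15 of 129 windows of genes at least 2-fold higher in IRDC (11.6%). The share was 6.57% of the windows of genes at least 2-fold lower and 4.72% of the windows of all genes tested. A match is a description of these letters and not a binding site.

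Several cytokines of the interleukin 6 family, along with Csf2 and Csf3, were higher with medium of irradiated cells. Of 12 interleukin 6 family ligands and receptors, 7 were higher and 3 lower. Il11 had 11.6, 10.8, 14.6 and 13.1 FPKM in IRDC, against 3.82, 2.91 and 2.66 FPKM in imDC (log2 fold change 1.71, SE 0.14, adjusted p = 3.9e-07). Lif, which keeps several stem cell types undifferentiated, averaged 150.4 ± 2.43 FPKM in IRDC and 50.5 ± 1.75 FPKM in imDC (log2 fold change 1.56). Il6 itself averaged 667 ± 17.5 FPKM in IRDC and 236 ± 9.72 FPKM in imDC (log2 fold change 1.49, SE 0.037, adjusted p = 4.4e-12). The receptor Il11ra1 ran against its ligand, at 8.96 FPKM in IRDC and 16.4 FPKM in imDC (log2 fold change -0.81), and Il6r did not pass the test, at a log2 fold change of -0.023 with a 95% interval from -0.18 to 0.13.

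Csf3, the granulocyte colony-stimulating factor, had 128, 131, 134 and 127 FPKM in the IRDC libraries, against 25.2, 26.9 and 28.8 FPKM in the imDC libraries (log2 fold change 2.23, SE 0.052, adjusted p = 2.3e-12). Csf2, the granulocyte-macrophage factor, averaged 5.16 ± 1.53 FPKM in IRDC and 1.03 ± 0.321 FPKM in imDC (log2 fold change 1.57, SE 0.19, adjusted p = 1.9e-05). Both stood apart between the groups, and Csf3 was at 0.0688 to 0.182 FPKM in the control libraries. The other members of the colony-stimulating list moved down in larger number, since 5 of 8 were lower. Kitlg, the ligand of the stem cell receptor Kit, had 12.8, 12.7, 12.2 and 10.98 FPKM in IRDC, against 34.4, 34.3 and 32.8 FPKM in imDC (log2 fold change -1.404, SE 0.046, adjusted p = 6.6e-11). Flt3lg, which expands dendritic cell precursors, averaged 0.632 ± 0.187 FPKM in IRDC and 1.68 ± 0.238 FPKM in imDC (log2 fold change -0.72).

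Factors that keep haematopoietic cells in the niche were lower for 10 of 13 members and higher for 2, with a median log2 fold change of -0.72. Besides Kitlg and Cxcl12, the adhesion molecule Vcam1 was lower, at 6.03 FPKM in IRDC and 16.8 FPKM in imDC (log2 fold change -1.34), and the stromal transcription factor Ebf3 averaged 2.21 FPKM in IRDC and 5.57 FPKM in imDC (log2 fold change -1.03). Angpt1, which quiets endothelium and stem cells through Tek, was higher at 86.2 FPKM in IRDC and 49.1 FPKM in imDC (log2 fold change 0.803).

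**Figure D2:**
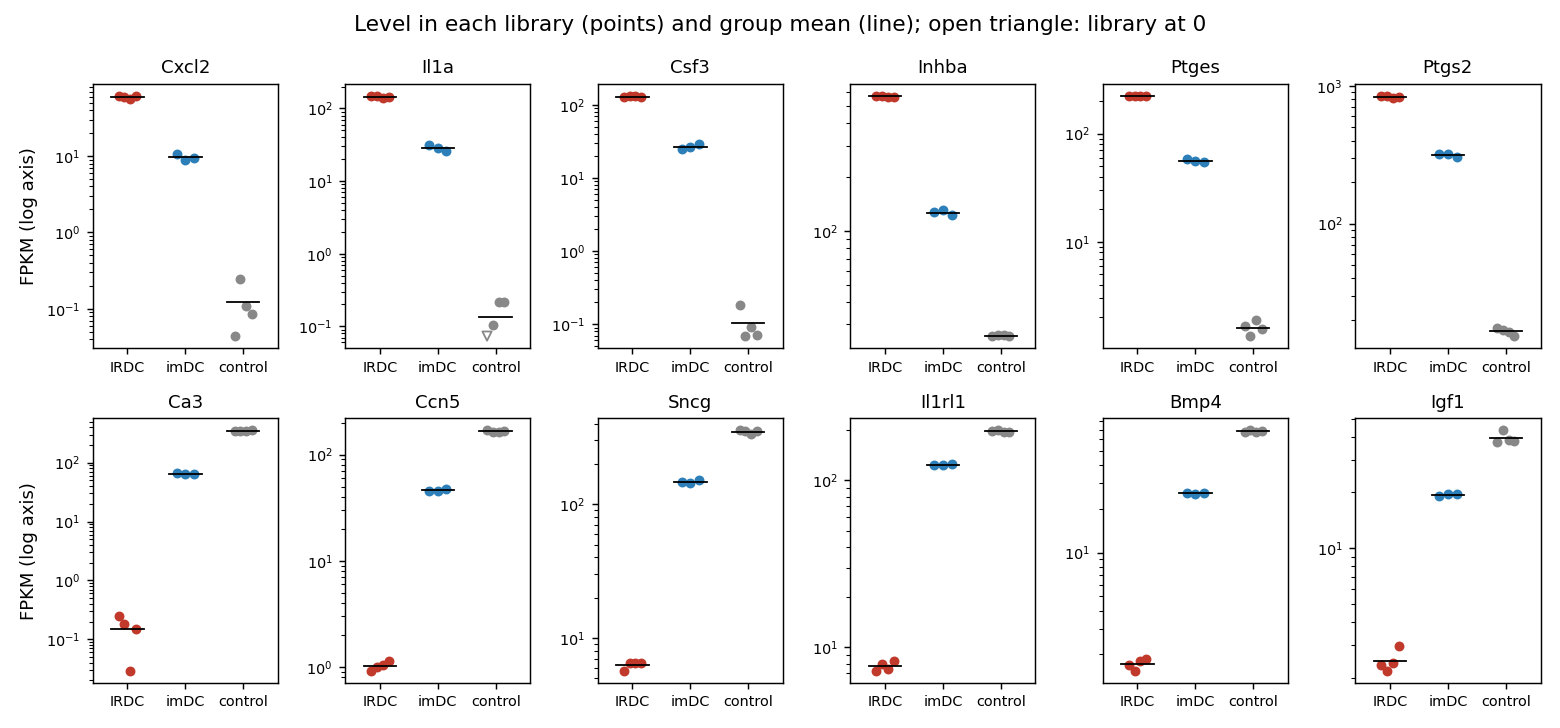
Each panel shows 1 gene, with FPKM on a log axis and the 4 IRDC, 3 imDC and 4 control libraries as points around their mean (line); an open triangle marks a library at 0. The 6 genes of the upper row are highest in the IRDC libraries and the 6 of the lower row are lowest there, with imDC between IRDC and control in every panel.

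In the TNF superfamily 11 of 16 members tested were lower in IRDC and 2 were higher. Tnfsf18, the ligand of the T cell receptor Gitr, averaged 0.8197 ± 0.201 FPKM in IRDC and 7.02 ± 0.282 FPKM in imDC (log2 fold change -2.15, SE 0.079, adjusted p = 1.8e-10). The death receptor Fas averaged 3.32 ± 0.176 FPKM in IRDC and 10.5 ± 0.297 FPKM in imDC (log2 fold change -1.41). Tnfrsf11b, the decoy receptor osteoprotegerin that blocks osteoclast formation, had 2.44, 2.74, 2.86 and 2.59 FPKM in IRDC, against 9.21, 8.62 and 8.19 FPKM in imDC (log2 fold change -1.404, SE 0.062, adjusted p = 1.1e-09). Its partner Tnfsf11, the osteoclast-inducing ligand, was listed at 0 in all 7 libraries. Tnfrsf21, a receptor with a death domain, had the higher fold change of the members that rose, at 21.3 FPKM in IRDC and 10.4 FPKM in imDC (log2 fold change 0.97).

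NF-kB regulators rose more often than they fell, with 14 of 26 higher and 6 lower. Nfkbia, the inhibitor that is itself an NF-kB target, had 30.1, 29.6, 31.5 and 26.7 FPKM in the IRDC libraries, against 18.7, 15.6 and 16.7 FPKM in the imDC libraries (log2 fold change 0.76, SE 0.074, adjusted p = 2.1e-06). Zc3h12a, a ribonuclease that degrades inflammatory mRNAs, averaged 42.7 FPKM in IRDC and 18.5 FPKM in imDC (log2 fold change 1.17), and the kinase Map3k8 averaged 14.2 FPKM in IRDC and 5.86 FPKM in imDC (log2 fold change 1.15). The cofactor Nfkbiz averaged 76.3 FPKM in IRDC and 49.2 FPKM in imDC (log2 fold change 0.63). The subunit genes Nfkb1 and Relb were higher by less, at log2 fold changes of 0.34 and 0.26. Rela stood at a log2 fold change of 0.071 with a 95% interval from -0.028 to 0.17 and Nfkb2 at 0.00044 with a 95% interval from -0.14 to 0.14, neither of which passed the test. Under the TMM-like scaling Rela was called higher, at 0.16. Ikbke, a kinase of the interferon and NF-kB pathways, was lower at 15.1 FPKM in IRDC and 21.6 FPKM in imDC (log2 fold change -0.49). The kappaB motif, GGG, any 5 bases and CC, stood in 61.2% of the windows of genes at least 2-fold higher in IRDC and in 67.2% of the windows of all genes tested. Among the raised CXC chemokines 4 of 6 windows held it, and among the raised NF-kB regulators 10 of 12.

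Toll-like receptors and their adaptors were higher for 9 of 19 members and lower for 6. Lbp, which hands bacterial lipopolysaccharide to Cd14, averaged 339 ± 3.07 FPKM in IRDC and 173 ± 3.82 FPKM in imDC (log2 fold change 0.97). Tlr2, the receptor of bacterial lipoproteins, averaged 51.5 FPKM in IRDC and 26.8 FPKM in imDC (log2 fold change 0.92), and the inflammasome sensor Nlrp3 averaged 22.8 FPKM in IRDC and 12.9 FPKM in imDC (log2 fold change 0.77). Tlr5, the flagellin receptor, had 0.0687, 0.0783, 0.0542 and 0.0438 FPKM in IRDC, against 4.22, 4.76 and 5.23 FPKM in imDC (log2 fold change -2.43, SE 0.077, adjusted p = 4.3e-11), which put every IRDC library below 1 FPKM. Tlr3, the receptor of double-stranded RNA, averaged 3.97 FPKM in IRDC and 8.65 FPKM in imDC (log2 fold change -0.96).

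The inducible enzymes of prostaglandin E2 synthesis were higher, while an importer and a receptor of prostaglandins were lower. Ptges, the inducible prostaglandin E synthase, had 223, 221, 223 and 224 FPKM in the IRDC libraries, against 57.8, 55.9 and 54.8 FPKM in the imDC libraries (log2 fold change 1.97, SE 0.055, adjusted p = 1.3e-11). Ptgs2, the inducible cyclooxygenase that supplies it, had 839.95, 848, 820.2 and 823 FPKM in the IRDC libraries, against 321, 319 and 306 FPKM in the imDC libraries (log2 fold change 1.4, SE 0.036, adjusted p = 6e-12). The IRDC libraries were all above the imDC libraries for both enzymes. Slco2a1, which carries prostaglandins into cells for breakdown, averaged 5.32 ± 0.602 FPKM in IRDC and 23.1 ± 0.184 FPKM in imDC (log2 fold change -1.94, SE 0.064, adjusted p = 6.3e-11). Ptgfr, the prostaglandin F receptor, averaged 30.95 FPKM in IRDC and 87 FPKM in imDC (log2 fold change -1.46), and Alox5ap, which feeds leukotriene synthesis, averaged 0.486 FPKM in IRDC and 4.2 FPKM in imDC (log2 fold change -1.82). The whole list had 5 of 17 members higher and 7 lower. The TMM-like scaling turned this to 7 higher and 6 lower, and quantile normalization to 9 higher and 6 lower.

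Among secreted antimicrobial and acute phase proteins 6 of 11 were higher and 3 lower. Lcn2, which binds bacterial iron carriers, averaged 1194 ± 11.1 FPKM in IRDC and 413 ± 2.72 FPKM in imDC (log2 fold change 1.53, SE 0.095, adjusted p = 2.9e-08). Slpi, a leukocyte protease inhibitor, had 1957, 1958, 1928 and 1939 FPKM in the IRDC libraries, against 643, 666 and 649.9 FPKM in the imDC libraries (log2 fold change 1.57, SE 0.15, adjusted p = 1.9e-06). The pattern recognition protein Ptx3 averaged 304 FPKM in IRDC and 107 FPKM in imDC (log2 fold change 1.49). Lyz2, the lysozyme of macrophages, was lower, at 185 ± 3.25 FPKM in IRDC and 496 ± 11.2 FPKM in imDC (log2 fold change -1.42, SE 0.019, adjusted p = 1.7e-14). In the complement list 4 of 22 members were higher and 11 lower. C3, the central component, averaged 142 ± 0.68 FPKM in IRDC and 54.7 ± 1.14 FPKM in imDC (log2 fold change 1.36), and the inhibitor clusterin, Clu, averaged 52.6 ± 1.91 FPKM in IRDC and 179 ± 3.61 FPKM in imDC (log2 fold change -1.74). C6, a component of the membrane attack complex, averaged 1.21 FPKM in IRDC and 6.89 FPKM in imDC (log2 fold change -1.84).

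Interferon-response genes were lower almost throughout. Of 31 tested, 27 were lower in IRDC, 1 was higher and 3 did not pass the test, with a median log2 fold change of -0.698 beside -0.084 over all genes. Gbp2, an interferon-induced GTPase, had 2.65, 3.24, 2.66 and 2.63 FPKM in the IRDC libraries, against 9.75, 10.4 and 9.14 FPKM in the imDC libraries (log2 fold change -1.504, SE 0.075, adjusted p = 3.4e-09). Irf7, the factor that amplifies type I interferon, had 1.01, 0.458, 0.842 and 0.661 FPKM in IRDC, against 3.51, 3.63 and 3.06 FPKM in imDC (log2 fold change -1.34, SE 0.104, adjusted p = 2.3e-07). Both were lower in every IRDC library than in any imDC library. Ddx58, which encodes the RNA sensor RIG-I, averaged 2.49 FPKM in IRDC and 6.599 FPKM in imDC (log2 fold change -1.13), and the signal transducer Stat2 had a log2 fold change of -0.63. Usp18, which restrains the interferon receptor, was the member called higher, at 3.77 FPKM in IRDC and 2.69 FPKM in imDC (log2 fold change 0.38, adjusted p = 0.034), and its libraries overlapped between the groups. The call was lost without imDC replicate 2 (adjusted p = 0.14) or 3 (0.1), and without IRDC replicate 2 (0.064), 3 (0.081) or 4 (0.062). Isg15 did not pass the test, at a log2 fold change of -0.011 with a 95% interval from -0.32 to 0.299.

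The promoters of Gbp2 and Irf7 were picked among lowered interferon-response genes whose windows hold the letters GAAA, any 2 bases and GAAA. These letters are the core of the element bound by interferon regulatory factors. Capitals mark the match, which in both windows reads on the opposite strand.
Gbp2 promoter, chr2:234005477-234005776, plus strand: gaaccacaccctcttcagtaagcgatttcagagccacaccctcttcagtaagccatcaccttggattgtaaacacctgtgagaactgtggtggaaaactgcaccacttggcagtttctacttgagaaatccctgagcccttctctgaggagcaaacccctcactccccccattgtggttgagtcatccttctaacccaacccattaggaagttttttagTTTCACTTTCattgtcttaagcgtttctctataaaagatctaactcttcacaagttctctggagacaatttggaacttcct
Irf7 promoter, chr1:205799974-205800273, minus strand: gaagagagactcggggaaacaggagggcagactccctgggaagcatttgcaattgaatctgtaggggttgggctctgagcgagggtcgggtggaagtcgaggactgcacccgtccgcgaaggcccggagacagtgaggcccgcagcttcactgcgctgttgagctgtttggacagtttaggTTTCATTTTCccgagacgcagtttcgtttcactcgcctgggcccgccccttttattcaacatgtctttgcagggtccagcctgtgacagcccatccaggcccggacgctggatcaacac
The match begins 31 bases before the start of Gbp2 and 69 bases before that of Irf7. On either strand, the interferon element stood in 12 of 21 windows of the interferon-response genes that were lower (57.1%). It stood in 26 of 289 windows of all genes at least 2-fold lower and in 2.95% of the windows of all genes tested.

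Genes of antigen presentation by MHC class I moved in both directions. The immunoproteasome subunits Psmb9 and Psmb10, which cut peptides for class I, averaged 1.64 FPKM in IRDC and 6.6 FPKM in imDC (log2 fold change -1.52) and 3.33 FPKM in IRDC and 9.84 FPKM in imDC (log2 fold change -1.32). Tap1, the peptide transporter, averaged 2.71 FPKM in IRDC and 6.38 FPKM in imDC (log2 fold change -0.99). The class I heavy chain genes RT1-CE7 and RT1-S3 were higher, at log2 fold changes of 1.01 and 0.91, but they share reads with near-identical copies and their split is uncertain. Over the list 8 of 22 members were higher and 11 lower. The TMM-like scaling gave 10 higher and 10 lower.

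Hypoxia-inducible factors, their regulators and their targets were higher in 26 of 36, with 6 lower and a median log2 fold change of 0.43. Hif1a, the oxygen-regulated subunit of the factor, had 472, 473, 459.98 and 459 FPKM in the IRDC libraries, against 273, 279 and 269 FPKM in the imDC libraries (log2 fold change 0.77, SE 0.026, adjusted p = 6.9e-11). Angptl4, which inhibits lipoprotein lipase from outside the cell, had 601, 606, 599.9 and 612 FPKM in the IRDC libraries, against 213, 219.6 and 214 FPKM in the imDC libraries (log2 fold change 1.48, SE 0.036, adjusted p = 3.8e-12). Egln3, an oxygen sensor that marks the factor for breakdown and is also its target, had 69.9, 67.9, 72.1 and 69 FPKM in IRDC, against 24.3, 23.8 and 23.9 FPKM in imDC (log2 fold change 1.501, SE 0.043, adjusted p = 1.7e-11). For these genes every IRDC library exceeded every imDC library, and Egln3 was at 0.0973 to 0.201 FPKM in the control libraries. Stc1, a secreted glycoprotein, averaged 123 FPKM in IRDC and 46.6 FPKM in imDC (log2 fold change 1.38), the carbonic anhydrase Ca12 averaged 53.9 FPKM in IRDC and 20.7 FPKM in imDC (log2 fold change 1.34), and Vegfa averaged 465 ± 4.18 FPKM in IRDC and 289 ± 2.47 FPKM in imDC (log2 fold change 0.68). Arnt2, a dimer partner of the factor, was lower at 4.93 FPKM in IRDC and 15.1 FPKM in imDC (log2 fold change -1.44).

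The hypoxia element ACGTG is shown in the promoters of Angptl4 and Hif1a, in capitals on either strand.
Angptl4 promoter, chr7:15258632-15258931, minus strand: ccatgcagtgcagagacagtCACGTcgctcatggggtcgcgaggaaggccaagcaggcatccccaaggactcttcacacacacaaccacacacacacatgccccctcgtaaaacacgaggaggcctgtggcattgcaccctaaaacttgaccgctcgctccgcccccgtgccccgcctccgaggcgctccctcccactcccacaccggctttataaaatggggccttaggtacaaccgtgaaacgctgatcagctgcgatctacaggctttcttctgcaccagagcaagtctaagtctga
Hif1a promoter, chr6:98359648-98359947, plus strand: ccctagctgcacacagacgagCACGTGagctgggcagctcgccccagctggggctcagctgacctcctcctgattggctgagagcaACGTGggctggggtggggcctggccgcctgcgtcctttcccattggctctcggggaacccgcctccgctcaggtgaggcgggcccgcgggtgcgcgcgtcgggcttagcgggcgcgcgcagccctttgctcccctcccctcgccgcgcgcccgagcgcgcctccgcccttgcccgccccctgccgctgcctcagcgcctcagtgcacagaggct
The Angptl4 window held 1 match, 230 bases before the start, and the Hif1a window held 3 matches, some of which overlap. Of the windows of raised hypoxia genes, 11 of 17 held the element (64.7%), beside 26.7% of the windows of all genes tested and 17.8% of those of genes at least 2-fold higher.

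Glycolysis and lactate genes were split, with 15 of 32 higher and 11 lower. On the log2(FPKM + 1) scale no member was called at a log2 fold change of 1 or more in either direction. The lactate exporter Slc16a3 averaged 270.1 ± 3.59 FPKM in IRDC and 148 ± 1.902 FPKM in imDC (log2 fold change 0.87), and the phosphofructokinase Pfkp averaged 55.1 FPKM in IRDC and 32.3 FPKM in imDC (log2 fold change 0.75). The lactate and pyruvate carrier Slc16a7 was lower, at 3.37 FPKM in IRDC and 7.71 FPKM in imDC (log2 fold change -0.996). Aldoa, the aldolase, did not pass the test at a log2 fold change of 0.034 with a 95% interval from -0.0092 to 0.077, but was called higher under the TMM-like scaling, at 0.13.

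Nuclear-encoded subunits of oxidative phosphorylation were lower in 59 of 69 and higher in 0, by small amounts (median log2 fold change -0.28). Under the TMM-like scaling 44 were lower and 2 higher. Ndufb10, a complex I subunit, averaged 39.3 ± 3.18 FPKM in IRDC and 61.8 ± 8.33 FPKM in imDC (log2 fold change -0.63), and Atp5mc1, a subunit of the ATP synthase ring, averaged 56.5 FPKM in IRDC and 83.2 FPKM in imDC (log2 fold change -0.55). Of 13 genes on the mitochondrial chromosome 11 were lower and none was called higher, with Mt-atp6 at 1493 FPKM in IRDC and 2200.1 FPKM in imDC (log2 fold change -0.56). Mt-co1, a cytochrome oxidase subunit, had the small log2 fold change of -0.078, and it turned to 0.019 and was not called under the TMM-like scaling.

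Genes listed for cholesterol synthesis, uptake and efflux and for their regulation were lower with medium of irradiated cells in 29 of 35 tested and higher in 4. Hmgcs1, which makes the precursor of mevalonate, had 22.2, 22.03, 21.1 and 21.7 FPKM in the IRDC libraries, against 85.5, 82.9 and 79.1 FPKM in the imDC libraries (log2 fold change -1.87, SE 0.029, adjusted p = 5e-14). Dhcr7, which closes the pathway to cholesterol, had 1.702, 1.45, 2.18 and 2.37 FPKM in IRDC, against 8.65, 7.61 and 7.66 FPKM in imDC (log2 fold change -1.63, SE 0.096, adjusted p = 1.9e-08). Msmo1, which removes sterol methyl groups, averaged 31.7 ± 1.402 FPKM in IRDC and 89.2 ± 2.96 FPKM in imDC (log2 fold change -1.46). No library of 1 group reached the range of the other for these 3 enzymes. Insig2, which holds the sterol sensor in the endoplasmic reticulum, was higher at 38.3 FPKM in IRDC and 28.4 FPKM in imDC (log2 fold change 0.42).

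Along the pathway the 17 enzymes set out in order were lower in IRDC, from Acat2 (log2 fold change -1.66) and Hmgcs1 at its start, through Idi1 (-1.36), to Dhcr7. For each of them the imDC mean lay between the IRDC and control means. Other enzymes of the pathway are not shown.

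**Figure D3:**
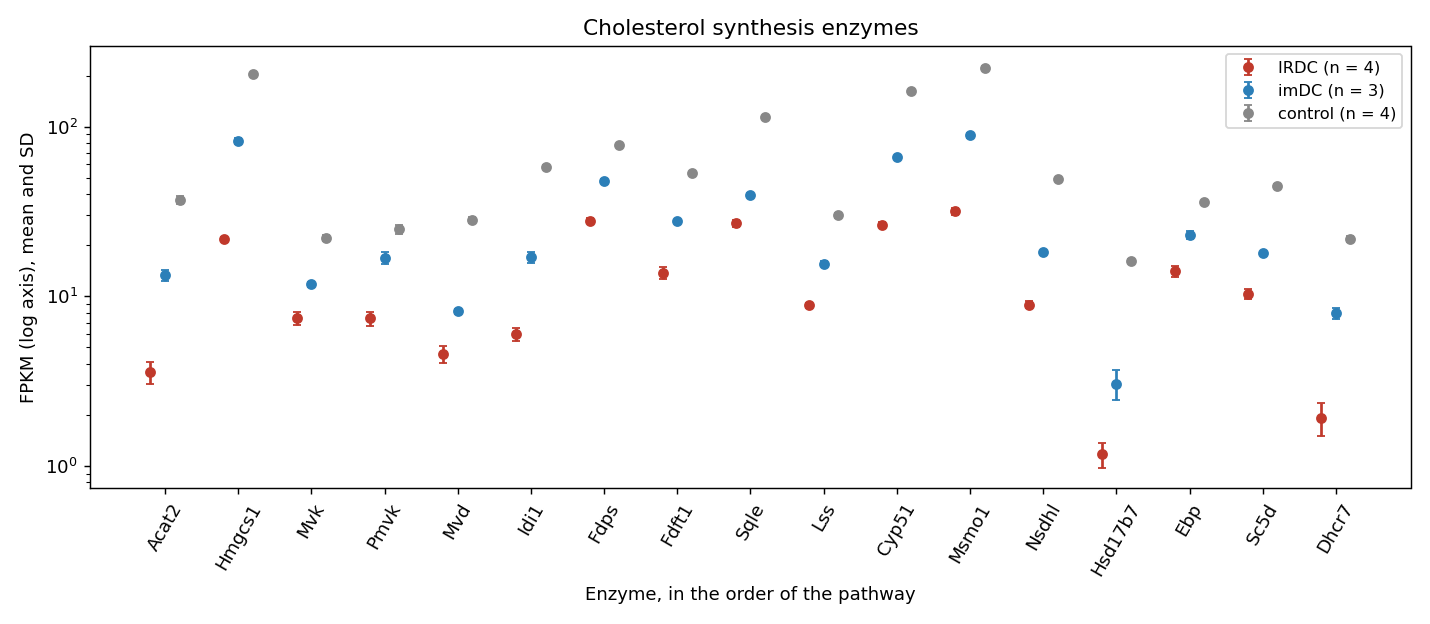
FPKM on a log axis (mean and SD) of 17 cholesterol synthesis enzymes, ordered from the first step to the last, in the IRDC (n = 4), imDC (n = 3) and control (n = 4) libraries. The IRDC mean is the lowest of the 3 for each enzyme shown, for instance 21.8 FPKM for Hmgcs1 beside 82.5 FPKM in imDC and 204 FPKM in control.

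The Hmgcs1 promoter is shown for CCAAT, the box bound by NF-Y, which works beside the sterol-regulated factors at many of these genes.
Hmgcs1 promoter, chr2:53382054-53382353, plus strand: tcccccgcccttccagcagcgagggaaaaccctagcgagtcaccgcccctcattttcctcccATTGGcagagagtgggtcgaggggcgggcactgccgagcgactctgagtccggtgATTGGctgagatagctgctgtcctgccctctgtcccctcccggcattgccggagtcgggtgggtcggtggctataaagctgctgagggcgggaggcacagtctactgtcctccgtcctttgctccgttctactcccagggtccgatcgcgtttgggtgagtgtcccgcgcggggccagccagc
The window held 2 matches, both on the opposite strand, the first 188 bases before the start. Of lowered cholesterol genes 16 of 21 windows held CCAAT (76.2%), beside 38.2% of all windows. The sterol element TCACNCCAC, searched on both strands, was in 0 of these 21 windows and in 1.16% of all windows, which says only that those letters are not there.

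Fatty acid genes followed, with 19 of 25 lower and 2 higher. Scd, the desaturase that makes oleic acid, had 1.405, 1.16, 1.19 and 1.12 FPKM in the IRDC libraries, against 28.2, 26.7 and 26.5 FPKM in the imDC libraries (log2 fold change -3.67, SE 0.047, adjusted p = 9.7e-15). Fads1 and Fads2, the desaturases of polyunsaturated fatty acids, averaged 15.9 FPKM in IRDC and 49.8 FPKM in imDC (log2 fold change -1.59) and 13.3 FPKM in IRDC and 36.9 FPKM in imDC (log2 fold change -1.403). Cpt1a, which admits fatty acids to mitochondria for oxidation, was higher at 11.02 FPKM in IRDC and 6.105 FPKM in imDC (log2 fold change 0.76).

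Adipocyte genes were lower in 9 of 14 and higher in 3. Fabp4, the fatty acid carrier of fat cells, had 3.29, 2.64, 2.63 and 3.42 FPKM in the IRDC libraries, against 51.01, 52.7 and 53.8 FPKM in the imDC libraries (log2 fold change -3.75, SE 0.072, adjusted p = 4e-13). Pparg, the factor that commits cells to fat, had 0.467, 0.788, 0.583 and 0.508 FPKM in IRDC, against 3.73, 4.68 and 5.34 FPKM in imDC (log2 fold change -1.81, SE 0.101, adjusted p = 1e-08). Cebpa, its partner in late differentiation, averaged 3.28 FPKM in IRDC and 11.7 FPKM in imDC (log2 fold change -1.57). These 3 genes were lower in every IRDC library than in any imDC library. Cebpb, an early factor of the same programme and of inflammation, took the other direction at 84.5 FPKM in IRDC and 45.8 FPKM in imDC (log2 fold change 0.87), and Fabp5 did not pass the test at a log2 fold change of -0.047 with a 95% interval from -0.14 to 0.052.

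Osteoblast genes showed 10 of 21 members lower and 6 higher, near the 38.6% lower and 21.1% higher of all genes tested. Runx2 had 12.7, 12.9, 11.99 and 12.6 FPKM in the IRDC libraries, against 11.6, 12.1 and 11.95 FPKM in the imDC libraries, and the groups overlapped. Its log2 fold change was 0.072 with a 95% interval from -0.028 to 0.17 (adjusted p = 0.2). It was called higher under the TMM-like scaling (log2 fold change 0.16, adjusted p = 0.0095) and under quantile normalization (0.15, adjusted p = 0.016). Sp7, which acts after Runx2, was at a log2 fold change of -0.23 with a 95% interval from -0.56 to 0.098 (adjusted p = 0.21). Alpl, the alkaline phosphatase of mineralising cells, had 1.64, 1.91, 2.01 and 1.49 FPKM in IRDC, against 4.62, 4.62 and 4.26 FPKM in imDC (log2 fold change -0.996, SE 0.066, adjusted p = 5.5e-08). Spp1, the matrix protein osteopontin, averaged 69.2 ± 2.304 FPKM in IRDC and 186 ± 5.44 FPKM in imDC (log2 fold change -1.42, SE 0.030, adjusted p = 9.6e-13). Both were lower in all IRDC libraries, while Postn, periostin, was higher at 1598 ± 26.3 FPKM in IRDC and 966 ± 9.44 FPKM in imDC (log2 fold change 0.72). Col1a1, the main collagen of bone, differed by a log2 fold change of 0.052 at 2470.2 FPKM in IRDC and 2382 FPKM in imDC (adjusted p = 0.013), and this call was lost without imDC replicate 3 (0.055). Bglap and Ibsp, markers of mature osteoblasts, were under 1 FPKM in the group means and were not tested.

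Genes of phosphate and pyrophosphate balance were higher in 8 of 11 and lower in 2. Enpp1, which makes the mineralisation inhibitor pyrophosphate, averaged 143 ± 1.05 FPKM in IRDC and 72.3 ± 0.936 FPKM in imDC (log2 fold change 0.98, SE 0.027, adjusted p = 1e-11). Mgp, the matrix Gla protein that also inhibits mineral, averaged 2210.3 ± 11.6 FPKM in IRDC and 1216 ± 12.4 FPKM in imDC (log2 fold change 0.86), and Phospho1, which releases phosphate inside matrix vesicles, averaged 6.39 FPKM in IRDC and 3.93 FPKM in imDC (log2 fold change 0.58). The list thus held inhibitors and promoters of mineral among its raised members.

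Ligands of the BMP family changed in both directions. Bmp4, an osteogenic ligand, had 1.69, 1.54, 1.82 and 1.86 FPKM in the IRDC libraries, against 25.6, 25.3 and 25.8 FPKM in the imDC libraries (log2 fold change -3.29, SE 0.042, adjusted p = 9.6e-15). Bmp6 had 21.2, 19.1, 21.7 and 21.4 FPKM in IRDC, against 6.1, 5.13 and 4.904 FPKM in imDC (log2 fold change 1.78, SE 0.087, adjusted p = 2.7e-09), and Bmp2 averaged 2.68 ± 0.227 FPKM in IRDC and 1.39 ± 0.23 FPKM in imDC (log2 fold change 0.63). Bmp4 was thus lower in all IRDC libraries, where Bmp6 and Bmp2 were higher. The antagonist Chrd averaged 0.454 FPKM in IRDC and 2.53 FPKM in imDC (log2 fold change -1.28), and the target Id4 averaged 1.202 FPKM in IRDC and 3.601 FPKM in imDC (log2 fold change -1.05). Over the BMP list 14 of 29 were higher and 13 lower.

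Inhba, the subunit of activin A, had 572, 570.2, 566 and 563 FPKM in the IRDC libraries, against 128, 130.3 and 122 FPKM in the imDC libraries (log2 fold change 2.15, SE 0.022, adjusted p = 1.3e-15). Fstl3, a secreted activin inhibitor, averaged 54.8 ± 1.34 FPKM in IRDC and 20.8 ± 1.17 FPKM in imDC (log2 fold change 1.36, SE 0.045, adjusted p = 6.8e-11). Both stood apart in all libraries, and Inhba was at 25.8 to 26.2 FPKM in control. A pair of feedback targets of the pathway were also higher, Pmepa1 at 199 FPKM in IRDC and 89.4 FPKM in imDC (log2 fold change 1.14) and Skil at 42.3 FPKM in IRDC and 21.1 FPKM in imDC (log2 fold change 0.97). The co-receptor Tgfbr3 was lower at 23.7 FPKM in IRDC and 48.6 FPKM in imDC (log2 fold change -1.003). Tgfb1 did not pass the test, at a log2 fold change of -0.0093 with a 95% interval from -0.092 to 0.073. In all 17 of 30 genes of this pathway were higher and 9 lower.

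Wnt pathway genes were lower in 17 of 22 and higher in 4. Lgr5, a receptor of the Wnt-enhancing R-spondins, had 3.07, 2.75, 2.86 and 3.29 FPKM in IRDC, against 18.7, 19.3 and 19.5 FPKM in imDC (log2 fold change -2.34, SE 0.053, adjusted p = 1.7e-12). The receptor Fzd4 averaged 0.932 FPKM in IRDC and 6.32 FPKM in imDC (log2 fold change -1.92), and Lgr4, the relative of Lgr5, averaged 10.7 FPKM in IRDC and 26.6 FPKM in imDC (log2 fold change -1.24). The secreted inhibitors Sfrp1 and Frzb were lower as well, with Sfrp1 at 207 ± 1.797 FPKM in IRDC and 466 ± 2.04 FPKM in imDC (log2 fold change -1.17) and Frzb at 1.46 FPKM in IRDC and 6.29 FPKM in imDC (log2 fold change -1.57). Wnt5a, a ligand of the non-canonical pathway, was higher at 211 ± 1.25 FPKM in IRDC and 97.7 ± 0.154 FPKM in imDC (log2 fold change 1.102, SE 0.016, adjusted p = 3.4e-14). In the Notch pathway the receptor Notch4 was higher at 9.15 FPKM in IRDC and 1.97 FPKM in imDC (log2 fold change 1.77), and the ligand Jag1 was lower at 2.37 FPKM in IRDC and 5.03 FPKM in imDC (log2 fold change -0.84).

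Igf1, the insulin-like growth factor of stromal cells, had 2.33, 2.17, 2.397 and 2.95 FPKM in the IRDC libraries, against 19.1, 19.5 and 19.6 FPKM in the imDC libraries (log2 fold change -2.56, SE 0.071, adjusted p = 1.1e-11). Igfbp4, a binding protein that holds it inactive, averaged 70.5 ± 1.02 FPKM in IRDC and 258 ± 0.835 FPKM in imDC (log2 fold change -1.86, SE 0.022, adjusted p = 4.8e-15), and Igfbp6 averaged 0.761 FPKM in IRDC and 4.67 FPKM in imDC (log2 fold change -1.699). Igfbp3, its main carrier in serum, was higher at 31.1 FPKM in IRDC and 12.4 FPKM in imDC (log2 fold change 1.26). Over the list 6 of 13 members were higher and 6 lower. Among other growth factors Hgf averaged 16.5 FPKM in IRDC and 7.11 FPKM in imDC (log2 fold change 1.11), the EGF receptor ligand Hbegf averaged 75.6 FPKM in IRDC and 34.3 FPKM in imDC (log2 fold change 1.12), and Nrg1 averaged 19.2 FPKM in IRDC and 6.03 FPKM in imDC (log2 fold change 1.52). Fgf1 and its receptor Fgfr2 were lower, at log2 fold changes of -1.54 and -1.61, and so was Pdgfc at -1.26.

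**Figure D4:**
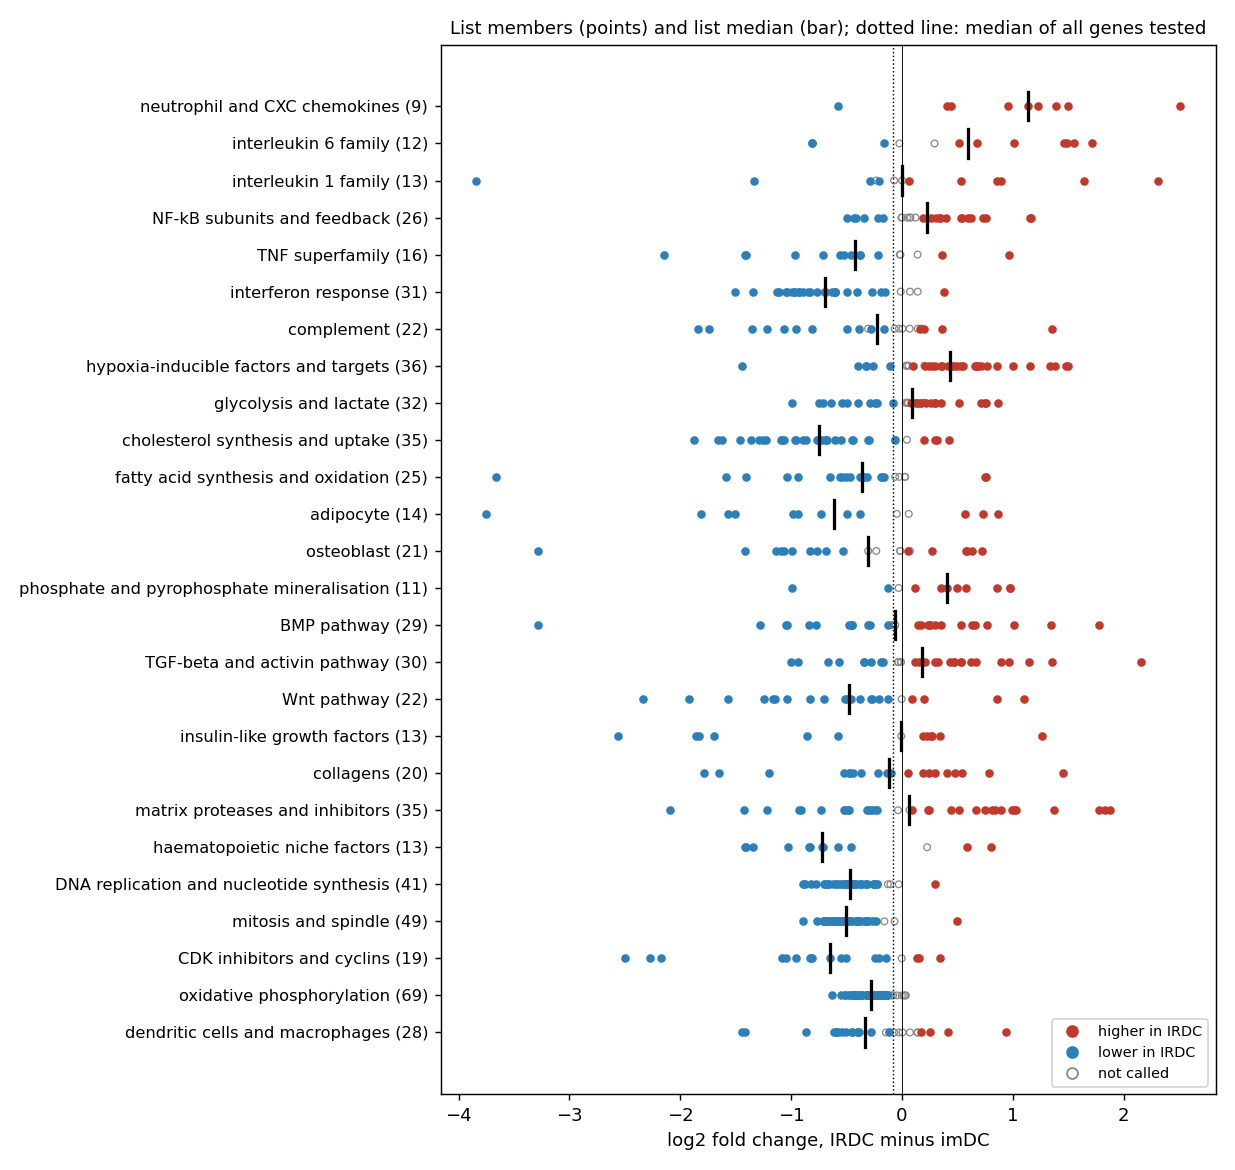
Each point is a tested member of the named gene list (number tested in brackets), placed by its log2 fold change, IRDC minus imDC; filled points were called and the bar is the list median. The bars of the CXC chemokines (1.14) and hypoxia genes (0.43) lie right of the dotted line at -0.084, and those of the cholesterol (-0.75) and interferon lists (-0.698) lie left of it.

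Cell cycle genes were lower, and so were several of the inhibitors that stop the cycle. Of 41 replication genes 36 were lower and 1 was higher, and of 49 mitosis genes 45 were lower and 1 was higher. On the log2(FPKM + 1) scale none of them was called at a log2 fold change of 1 or more in either direction. Tyms, which makes thymidylate, averaged 5.75 ± 0.773 FPKM in IRDC and 11.6 ± 1.51 FPKM in imDC (log2 fold change -0.896), and Tk1, a thymidine kinase of S phase, averaged 6.19 ± 0.444 FPKM in IRDC and 12.2 ± 0.7397 FPKM in imDC (log2 fold change -0.88). Mki67, the proliferation marker Ki-67, had 6.44, 6.06, 6.62 and 6.05 FPKM in the IRDC libraries, against 10.7, 10.8 and 10.4 FPKM in the imDC libraries (log2 fold change -0.67, SE 0.055, adjusted p = 4e-07). The 4 IRDC libraries lay below the imDC libraries, and the control libraries held 3.46 to 3.96 FPKM. Cdc20, which releases cells from metaphase, averaged 4.63 ± 0.813 FPKM in IRDC and 9.38 ± 0.741 FPKM in imDC (log2 fold change -0.89). Ccne2 and Mybl2, both active at the start of S phase, were the members called higher, at log2 fold changes of 0.301 and 0.501.

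Cdkn2b, an inhibitor of Cdk4 and Cdk6, had 1.72, 1.33, 1.45 and 1.304 FPKM in the IRDC libraries, against 13.6, 12.3 and 12.7 FPKM in the imDC libraries (log2 fold change -2.502, SE 0.059, adjusted p = 2.8e-12). Cdkn2a, its neighbour in the genome and a marker of senescence, had 3.04, 4.63, 3.83 and 3.51 FPKM in IRDC, against 21.5, 19.04 and 20.2 FPKM in imDC (log2 fold change -2.17, SE 0.092, adjusted p = 6.9e-10). Cdkn1c, the inhibitor p57, averaged 0.3101 ± 0.199 FPKM in IRDC and 5.299 ± 0.609 FPKM in imDC (log2 fold change -2.27). All IRDC libraries were below all imDC libraries for these inhibitors. Cdkn1a, the inhibitor p21, averaged 112 ± 4.17 FPKM in IRDC and 165 ± 0.8803 FPKM in imDC (log2 fold change -0.55). The cyclin Ccnd2 averaged 43.6 FPKM in IRDC and 93.4 FPKM in imDC (log2 fold change -1.08), its kinase Cdk6 averaged 6.67 FPKM in IRDC and 14.9 FPKM in imDC (log2 fold change -1.05), and Rb1, the brake they remove, was higher at 16.3 FPKM in IRDC and 12.7 FPKM in imDC (log2 fold change 0.34). In the list of inhibitors, cyclins and their kinases 15 of 19 were lower and 3 higher.

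The Mcm6 promoter, of a helicase subunit that opens replication origins, is shown for TTTCNCGC, a motif of the E2F factors, in capitals on the opposite strand.
Mcm6 promoter, chr13:42404303-42404602, minus strand: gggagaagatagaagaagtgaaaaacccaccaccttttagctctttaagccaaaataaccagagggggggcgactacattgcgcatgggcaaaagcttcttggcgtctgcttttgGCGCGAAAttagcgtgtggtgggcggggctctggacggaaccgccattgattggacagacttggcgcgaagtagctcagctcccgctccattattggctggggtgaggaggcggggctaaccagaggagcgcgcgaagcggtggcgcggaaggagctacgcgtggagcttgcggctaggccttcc
Of lowered replication genes 11 of 28 windows held TTTCNCGC on either strand (39.3%), beside 4.09% of all windows. Of lowered mitosis genes 29 of 38 windows held CCAAT (76.3%), beside 38.2% of all windows.

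**Figure D5:**
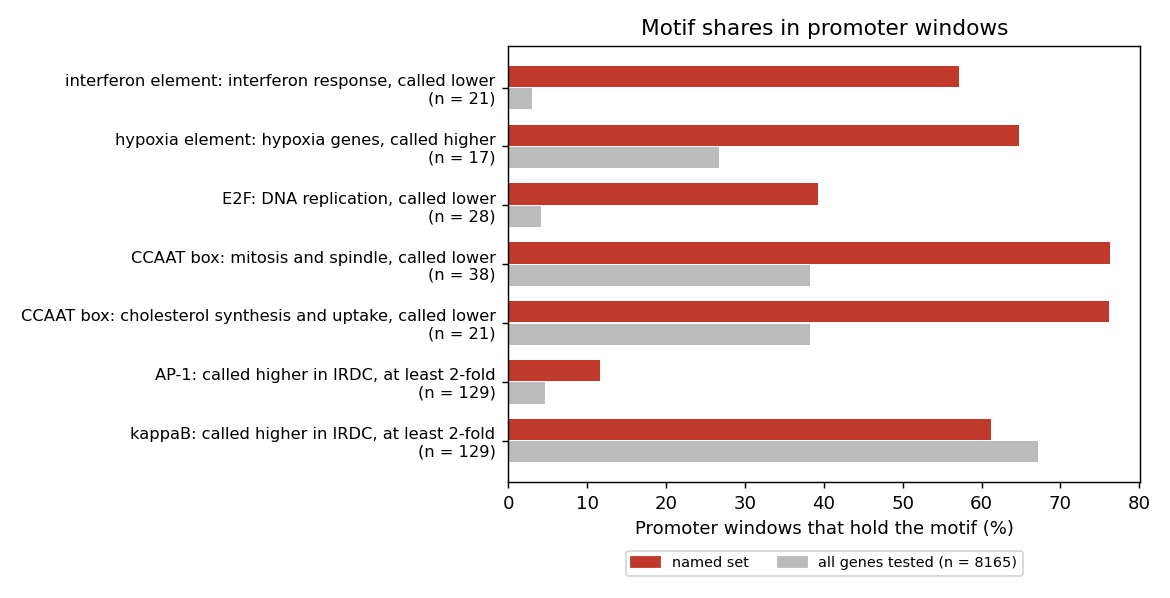
Bars give the percentage of promoter windows that hold each motif, in the named set of called genes and in all 8165 tested genes with 1 window. The set's share is above that of all genes for the pairs drawn, for example 57.1% beside 2.95% for the interferon element, except for the kappaB motif, at 61.2% beside 67.2%. The pairs drawn are a choice among more sets and motifs. Among pairs not drawn, the hypoxia element stood in 17.8% of windows of genes at least 2-fold higher, beside 26.7% of all windows.

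DNA repair genes were lower in 21 of 34 and higher in 3. Ercc1, a nuclease of excision repair, was one of those higher and averaged 35.8 FPKM in IRDC and 22.1 FPKM in imDC (log2 fold change 0.68).

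Matrix proteases moved in both directions. The stromelysin Mmp3 had 542, 537, 530.3 and 546 FPKM in the IRDC libraries, against 147, 144 and 148 FPKM in the imDC libraries (log2 fold change 1.87, SE 0.023, adjusted p = 5.8e-15). Mmp13, the collagenase of bone and cartilage, averaged 248 ± 8.14 FPKM in IRDC and 69.1 ± 3.72 FPKM in imDC (log2 fold change 1.83), and Mmp10, the second stromelysin, averaged 99.8 ± 2.61 FPKM in IRDC and 28.3 ± 0.48 FPKM in imDC (log2 fold change 1.78). Every IRDC library was above every imDC library for the 3 enzymes. Timp1, an inhibitor of these proteases, was higher too, at 2307 ± 9.299 FPKM in IRDC and 1289.8 ± 16.7 FPKM in imDC (log2 fold change 0.84). Adamts15, which cleaves proteoglycans, averaged 1.33 FPKM in IRDC and 8.898 FPKM in imDC (log2 fold change -2.09), and Plau, the urokinase that activates plasmin, averaged 9.25 FPKM in IRDC and 26.5 FPKM in imDC (log2 fold change -1.42). In the list 17 of 35 were higher and 15 lower.

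Collagens were higher for 9 of 20 chains and lower for 11, and under the TMM-like scaling for 9 and 9. Col14a1, a collagen on the surface of fibrils, had 171, 172, 169 and 171 FPKM in the IRDC libraries, against 585, 596 and 593 FPKM in the imDC libraries (log2 fold change -1.79, SE 0.015, adjusted p = 5.7e-16). Col6a1 and Col6a2, chains of the beaded filaments around cells, averaged 76.04 ± 2.11 FPKM in IRDC and 241 ± 3.66 FPKM in imDC (log2 fold change -1.65) and 95.2 ± 0.756 FPKM in IRDC and 219 ± 1.88 FPKM in imDC (log2 fold change -1.196). Col7a1, the anchoring fibril of epithelia, averaged 7.296 ± 0.184 FPKM in IRDC and 2.04 ± 0.186 FPKM in imDC (log2 fold change 1.45), and Col12a1, which like Col14a1 lies on fibrils, averaged 245 ± 1.95 FPKM in IRDC and 141 ± 1.48 FPKM in imDC (log2 fold change 0.79). Enzymes that crosslink collagen also diverged. Plod2, which prepares lysines for stable crosslinks and is a hypoxia target, averaged 706 ± 14.8 FPKM in IRDC and 335 ± 1.86 FPKM in imDC (log2 fold change 1.07), and the lysyl oxidase relatives Loxl1 and Loxl3 were lower at log2 fold changes of -1.24 and -1.46.

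Small proteoglycans and matricellular proteins were higher in 16 of 35 and lower in 17, and in 17 and 17 under the TMM-like scaling. Ccn5, a matricellular protein that slows muscle cell growth, had 0.918, 1.001, 1.05 and 1.14 FPKM in the IRDC libraries, against 45.4, 45.9 and 47.2 FPKM in the imDC libraries (log2 fold change -4.54, SE 0.038, adjusted p = 5.7e-16). Ogn, the small proteoglycan osteoglycin, averaged 0.142 FPKM in IRDC and 4.96 FPKM in imDC (log2 fold change -2.36), and Efemp1, a fibulin, averaged 0.9396 FPKM in IRDC and 9.92 FPKM in imDC (log2 fold change -2.52). Fmod, fibromodulin, was higher at 52.6 ± 1.06 FPKM in IRDC and 14.03 ± 0.292 FPKM in imDC (log2 fold change 1.83). Cemip, which breaks down hyaluronan, had 56.8, 55.9, 56.5 and 58.1 FPKM in the IRDC libraries, against 235, 236 and 237 FPKM in the imDC libraries (log2 fold change -2.04, SE 0.019, adjusted p = 9.1e-16). Has2, which makes hyaluronan, was higher at 216 FPKM in IRDC and 129.8 FPKM in imDC (log2 fold change 0.73), as was Tnfaip6, which crosslinks it, at 75.3 FPKM in IRDC and 43.8 FPKM in imDC (log2 fold change 0.77).

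Contractile and membrane genes were mixed. Cnn1, calponin of smooth muscle, averaged 119 ± 6.27 FPKM in IRDC and 45.3 ± 0.769 FPKM in imDC (log2 fold change 1.37), while Mylk, the myosin light chain kinase, averaged 5.55 FPKM in IRDC and 17.1 FPKM in imDC (log2 fold change -1.47). Smooth muscle genes were higher in 8 of 22 and lower in 10. The TMM-like scaling gave 11 higher and 8 lower, and quantile normalization 10 higher and 10 lower. Cavin1, a coat protein of caveolae, averaged 52.3 ± 0.694 FPKM in IRDC and 96.3 ± 2.71 FPKM in imDC (log2 fold change -0.87). Cavin2, another coat protein, had 0.0306, 0.0447, 0.0434 and 0 FPKM in IRDC, against 3.51, 4.12 and 2.95 FPKM in imDC (log2 fold change -2.13, SE 0.074, adjusted p = 1e-10). Caveolar genes were lower in 6 of 8 and higher in 2.

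The lowest fold change of all belonged to Ca3, a carbonic anhydrase of muscle and fat. Ca3 had 0.246, 0.1799, 0.0291 and 0.147 FPKM in the IRDC libraries, against 65.9, 63.2 and 65.4 FPKM in the imDC libraries (log2 fold change -5.84, SE 0.052, adjusted p = 8.6e-16), and the control libraries held 341 to 354 FPKM. Its reads numbered 8, 6, 1 and 5 in IRDC, against 1860, 1916 and 2031 in imDC, so the IRDC level rests on few reads. Sncg, a synuclein of nerve and fat, had 5.696, 6.49, 6.47 and 6.53 FPKM in the IRDC libraries, against 145, 143 and 151 FPKM in the imDC libraries (log2 fold change -4.34, SE 0.041, adjusted p = 9.6e-16). Npnt, a ligand of integrin alpha 8 in matrix, had 0.661, 0.516, 0.576 and 0.278 FPKM in IRDC, against 21.1, 24.9 and 26.3 FPKM in imDC (log2 fold change -4.06, SE 0.091, adjusted p = 1.7e-12). The IRDC libraries were all far below the imDC libraries for these genes, where a lack of overlap was a condition of their choice. Calls under 1 FPKM in every library of 1 group and at least 5 FPKM in every library of the other numbered 13, and in all of them IRDC was the low group. They included Trem2, a lipid receptor of macrophages, at 0.613 FPKM in IRDC and 5.82 FPKM in imDC (log2 fold change -2.08), Islr at 0.531 FPKM in IRDC and 7.48 FPKM in imDC (log2 fold change -2.47) and the amine oxidase Aoc3 at 0.3695 FPKM in IRDC and 6.17 FPKM in imDC (log2 fold change -2.39). Peg3, an imprinted zinc finger gene, averaged 2.06 ± 0.0719 FPKM in IRDC and 30.9 ± 0.754 FPKM in imDC (log2 fold change -3.38).

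Mir675, the hairpin gene that lies within the imprinted transcript H19, had 0.5802, 3.398, 1.098 and 3.88 FPKM in the IRDC libraries, against 95.7, 111 and 93.7 FPKM in the imDC libraries (log2 fold change -5.12, SE 0.31, adjusted p = 2.3e-08). The reads behind these values numbered 1, 6, 2 and 7 in IRDC, against 143, 179 and 154 in imDC. Every IRDC library was below every imDC library, which was a condition of the gene's choice. These are mRNA libraries, so the reads on the hairpin cannot be told apart from reads of H19, and they do not measure the mature microRNA. Its 2 mature products in RefSeq (GRCr8) are shown with the seed, bases 2 to 8, in capitals, since the seed sets their targets and differs between the arms.
rno-miR-675-5p, chr1:207161800-207161821, minus strand: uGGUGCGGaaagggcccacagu
rno-miR-675-3p, chr1:207161766-207161786, minus strand: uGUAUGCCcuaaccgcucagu

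Other genes among the 15 named for the highest fold changes had varied roles. Lmcd1, a repressor of the factor Gata6, had 77.7, 77.97, 75.1 and 77.2 FPKM in the IRDC libraries, against 13.6, 14.6 and 14.9 FPKM in the imDC libraries (log2 fold change 2.34, SE 0.083, adjusted p = 1.2e-10). Hdc, which makes histamine, averaged 26.8 ± 1.19 FPKM in IRDC and 6.21 ± 0.378 FPKM in imDC (log2 fold change 1.95), and Cyp7b1, which hydroxylates oxysterols, averaged 95.4 ± 2.49 FPKM in IRDC and 22.5 ± 1.22 FPKM in imDC (log2 fold change 2.04). Slc47a1, an exporter of organic cations, averaged 23.8 ± 0.933 FPKM in IRDC and 4.15 ± 0.196 FPKM in imDC (log2 fold change 2.27). All were higher in each IRDC library than in any imDC library, which was a condition of their choice. Among the lowest, the aldo-keto reductase Akr1c14 averaged 9.96 ± 0.374 FPKM in IRDC and 145 ± 3.92 FPKM in imDC (log2 fold change -3.74), and the guidance ligand Sema3d averaged 3.67 ± 0.4099 FPKM in IRDC and 59.1 ± 1.599 FPKM in imDC (log2 fold change -3.69).

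Stress and nutrient pathways moved less evenly. Amino acid response genes were higher in 19 of 42 and lower in 14, with the cystine importer Slc7a11 at 7.82 FPKM in IRDC and 3.27 FPKM in imDC (log2 fold change 1.05). Unfolded protein genes were higher in 9 of 33 and lower in 14, near the 21.1% and 38.6% of all genes tested. The TMM-like scaling turned this to 15 higher and 8 lower. The sensor Ern1 was higher at 10.4 FPKM in IRDC and 6.36 FPKM in imDC (log2 fold change 0.63), and Ddit3, which promotes death under stress, was lower at 26.1 FPKM in IRDC and 35.9 FPKM in imDC (log2 fold change -0.45). Sod2, the mitochondrial superoxide dismutase and an NF-kB target, averaged 965 ± 7.67 FPKM in IRDC and 481 ± 6.94 FPKM in imDC (log2 fold change 1.003, SE 0.023, adjusted p = 1.7e-12). Nqo1, a target of the oxidative stress factor Nrf2, was lower at 102 ± 2.56 FPKM in IRDC and 181 ± 5.93 FPKM in imDC (log2 fold change -0.83). Arg1, which breaks down arginine, averaged 130.5 ± 3.48 FPKM in IRDC and 37.8 ± 1.86 FPKM in imDC (log2 fold change 1.76, SE 0.035, adjusted p = 6.5e-13), and Odc1, which starts polyamine synthesis, averaged 18.8 ± 0.413 FPKM in IRDC and 46.99 ± 1.29 FPKM in imDC (log2 fold change -1.28). Slc39a14, a zinc and iron importer induced by inflammation, averaged 295 FPKM in IRDC and 151 FPKM in imDC (log2 fold change 0.96).

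The libraries also held genes of other cell types. Of 41 genes listed for dendritic cells and macrophages 28 were tested, with 4 higher and 16 lower, and the list summed to 777 to 782 FPKM in IRDC, 1154 to 1176 FPKM in imDC and 1144 to 1166 FPKM in control. The leukocyte marker Ptprc had 5.33, 5.15, 5.07 and 5.37 FPKM in the IRDC libraries, against 8.51, 9.397 and 7.54 FPKM in the imDC libraries (log2 fold change -0.601, SE 0.062, adjusted p = 3.7e-06), with no overlap between the groups. The macrophage marker Cd68 averaged 69.8 FPKM in IRDC and 84.9 FPKM in imDC, and Cd74, the MHC class II chaperone, averaged 1.68 FPKM in IRDC and 6.29 FPKM in imDC. Members called higher were Clec4e at 6.04 FPKM in IRDC and 2.68 FPKM in imDC, Cd163 at 27.5 FPKM in IRDC and 20.3 FPKM in imDC, Cd14 at 89.1 FPKM in IRDC and 74.5 FPKM in imDC and Mrc1 at 77.9 FPKM in IRDC and 69.2 FPKM in imDC. The other 8 did not pass the test, among them Itgam at a log2 fold change of -0.070 with a 95% interval from -0.196 to 0.056, Spi1 at -0.14 with a 95% interval from -0.28 to -0.014 (adjusted p = 0.054, and 0.03 without imDC replicate 3) and C1qa at -0.027 with a 95% interval from -0.18 to 0.13. The markers of this list thus moved in both directions. Defining dendritic cell genes were low, with Itgax at 0.462 FPKM in IRDC and 0.868 FPKM in imDC, and Flt3 was at 0 in 3 of the 4 IRDC libraries and in all 3 imDC libraries. The neutrophil list summed to 19.7 to 21.9 FPKM in IRDC, 16.9 to 17.4 FPKM in imDC and 15.6 to 16.9 FPKM in control, with S100a9 at 0 in all 7 libraries and Camp, Mmp9 and Ncf1 tested (log2 fold changes 0.66, 0.67 and -0.32). The lymphocyte list summed to 41.5 to 45.1 FPKM in IRDC, 53.8 to 55.8 FPKM in imDC and 50.6 to 53.9 FPKM in control, with Cd3e and Cd79a at 0 in all 7 libraries and Cd4 and Cd8a lower (log2 fold changes -0.35 and -0.39). The erythroid list summed to 0.454 to 0.902 FPKM in IRDC, 1.15 to 1.98 FPKM in imDC and 0.987 to 1.65 FPKM in control. Lyz2, Trem2, Cd74, Clu, C6 and most interferon-response genes were lower as Ptprc was, C3 and Usp18 were higher, and the part of leukocytes in those results was not tested.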

How the data were processed

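mRNA libraries of rat BMSCs were sequenced on an Illumina NovaSeq after poly(A) capture, per the labels' protocols. The authors deposited 1 table of FPKM values for all 11 libraries. The submitters' processing notes name FastQC 0.11.9, cutadapt 1.18, STAR 2.7.1a, SAMtools 1.3.1, HTSeq 0.13.5, Cufflinks and the rat build rn6. Their roles and the strand setting of the counting are not given in the sources used here, so overlapping and antisense genes cannot be told apart. FPKM is relative to the mapped total, so a gene that takes more reads lowers the others.

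Low FPKM values are whole multiples of the value of 1 read. From them 21487 of the 21487 genes above 0 gave whole reads (100%, within 0.1 read), and the libraries held 17780428 to 25521204 reads. The recovered reads are the smallest whole numbers that fit each gene's values, so they are lower bounds. A gene above 0 in only 1 library always fits. 388 genes without a name kept their identifiers and 192 names stood on more than 1 line.

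Genes reaching 1 FPKM in 3 or more of the 7 compared libraries were fitted with limma 3.58.1 in R 4.3.3 on log2(FPKM + 1). All 11 libraries shared the estimate of spread, with a mean trend and Benjamini-Hochberg adjustment over 11979 genes. Log2 fold changes refer to log2(FPKM + 1), IRDC minus imDC, and understate those of low genes. Errors after ± are SDs over 4 IRDC, 3 imDC or 4 control libraries. The script was tested on simulated data. limma-voom on the recovered reads called 7260 genes.

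The comparison and the 67 gene lists were chosen with earlier results of these data known. Counts per list are descriptions without a test of the list, and 50 of 1685 list entries matched no name. Named genes are the 15 highest and 15 lowest fold changes, up to 5 called members per list and the largest against its direction, genes low in 1 group and high in the other, the 10 most abundant and a set of standard markers. Members that did not pass the test, Mcm6, and the markers of cell types were named beside these, some after their values were seen. The 15 highest and 15 lowest were taken among called, named genes with at least 5 FPKM on average in the higher group. Only genes without overlap between IRDC and imDC libraries could be among them. Promoter windows and mature microRNAs are from RefSeq (GRCr8), and 8165 of 11979 genes matched exactly 1 window. Motif shares of a list cover only its members called in the direction named. The other members of the list were not counted, so such a share can reflect how the list was made up. GRCr8 is not the build of the reads, and its coordinates locate only the printed sequences. Results for some genes and 1 list are not reported here.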

Additional observations from a re-analysis of the deposited data

Results flagged for a closer look

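Of 220 sets of 4 libraries examined for the genes named above, 10 held a library farther from the others than the 95% critical value of Dixon's test; chance flags about 1 in 20. In IRDC replicate 2, Il11ra1 was at 7.36 FPKM (others 9.36 to 9.68), Gbp2 at 3.24 FPKM (others 2.63 to 2.66), Mybl2 at 5.13 FPKM (others 5.73 to 5.85) and Cyp7b1 at 99.1 FPKM (others 93.7 to 94.4). In IRDC replicate 4, Ccl12 was at 6.88 FPKM (others 8.06 to 8.11), Plau at 9.94 FPKM (others 8.9 to 9.08) and Nqo1 at 97.8 FPKM (others at 103). In IRDC replicate 3, Ogn was at 0.0925 FPKM (others 0.156 to 0.163) and Ern1 at 9.99 FPKM (others 10.5 to 10.6). In IRDC replicate 1, Sncg was at 5.7 FPKM (others 6.47 to 6.53). Every library named here remained on its own side of the imDC libraries.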

How the results depend on the processing

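The counts of calls, the fold changes of named genes that passed each filter and the counts per list were recomputed under 21 other settings. Counts of genes without overlap, motif shares and shares by level were not. The count of called genes lay between 5807 (filter of 5 FPKM) and 7647 (no filter) outside the test against a minimum fold of 2. That test called 366 genes, 111 higher and 255 lower, all of them counted as at least 2-fold. Genes called at least 2-fold numbered 1010 with voom on recovered reads, 961 with a pseudocount of 0.1 and 458 with the filter of 5 FPKM, against 642. At least 4-fold calls numbered 261 with voom and 247 with a pseudocount of 0.1, against 85. Leaving out 1 library gave 6592 to 6919 calls, 2316 to 2417 of them higher, 4276 to 4528 lower, 637 to 658 at least 2-fold and 81 to 86 at least 4-fold. The titles state no pairing by replicate number. Deviations of same-numbered libraries correlated at -0.026, -0.015 and 0.029, which cannot show whether samples shared an animal or culture. With the replicate block 6930 genes were called over 11 libraries and 6446 over 7.

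Of the 213 genes fitted and named, 201 were called. Apart from the minimum-fold test, Usp18, Col1a1 and Mt-co1 lost their call under some setting, and Mt-co1 reversed to 0.019 under the TMM-like scaling without being called. Rela, Aldoa and Runx2 gained a call under it, and Spi1 without imDC replicate 3 (adjusted p = 0.03) or without the mean trend (0.032). The causes were not tested. At 17780428 to 25521204 reads a library, genes under 1 FPKM were not compared.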

Other observations

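The share of genes called higher depended on level. Of 3482 genes under 5 FPKM on average, 11.2% were higher in IRDC and 36.2% lower. Of 789 genes at 100 FPKM or more, 37.4% were higher and 47.1% lower.

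Among the most abundant transcripts, Sparc, a collagen-binding matrix protein, averaged 2193 FPKM in IRDC and 2216 FPKM in imDC and did not pass the test. Fn1, fibronectin, averaged 3420.2 FPKM in IRDC and 2817 FPKM in imDC (log2 fold change 0.28). Among clock genes 8 of 17 were higher and 4 lower, with Npas2, an activator of the clock, at 8.26 FPKM in IRDC and 5.22 FPKM in imDC. Among heat shock proteins 6 of 25 were higher and 13 lower, with Cryab, a small chaperone, at 0.777 FPKM in IRDC and 3.63 FPKM in imDC. Lysosomal genes were higher in 11 of 43 and lower in 23, and the TMM-like scaling gave 15 higher and 14 lower. Of all genes tested 21.1% were higher and 38.6% lower on the values as deposited.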
